A study of Mus musculus with 8 samples.

Results

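Ccl17, Ccl22 and 6 further chemokine and chemokine receptor genes that bear on the movement of dendritic cells (DCs) were followed through ChIP-seq peak lists of D1 cells. The 8 genes, out of 37252 annotated genes of which 22350 are protein-coding, were the ligand genes Ccl22, Ccl17, Cx3cl1 and Ccl24 and the receptor genes Ccr7, Ccr1, Ccr2 and Cxcr4. They were chosen by name, with no threshold on a measured value. Ccl22, Cx3cl1 and Ccl17 are neighbours on chromosome 8 and were treated as 1 locus.

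D1 is a long-term line of splenic DCs from C57BL/6 mice. The study asked where the transcription factor NFATc2 (called NFAT1 in the sample labels) binds after the β-glucan curdlan, and how the promoter mark H3K4me3 responds. Binding was mapped with a V5 tag in D1 cells transduced with a lentivirus and sorted for low GFP, after 30 min of curdlan at 10 μg/ml. For H3K4me3 there were D1 cells left non-treated (NT), D1 cells given curdlan at 10 μg/ml for 2 h, and D1 cells given curdlan together with the calcineurin inhibitor FK506 for 2 h. Values given as FK506 or with FK506 come from that library, which also had curdlan. The labels name no FK506 dose. The tagged factor was introduced into the cells, and neither its level beside their own factor nor binding without curdlan was analysed here.

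A single ChIP and a single input library were sequenced per condition. There was therefore no replicate spread and no test between conditions, and every interval given here is a 95% exact interval that covers counting error only. ChIP libraries held between 14377535 and 21289349 tags, and the lists held 9438 NFATc2 peaks and between 14872 and 15799 H3K4me3 peaks. H3K4me3 peaks lay within 1 kb of a transcription start site (TSS) at 7 of the 8 DC marker genes found by name, in each of the 3 lists, with Flt3 the one without a peak. None of 3 T cell, 3 B cell and 3 fibroblast marker genes had one in any list.

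Chemokines are small secreted proteins that bind G protein-coupled receptors and set the direction in which leukocytes move. Immature DCs carry receptors for inflammatory chemokines such as Ccr1 and Ccr2, while Ccr7 guides mature DCs to lymph nodes along its ligands Ccl19 and Ccl21. Ccl17 and Ccl22 are made by DCs themselves and attract T cells that carry Ccr4. NFAT factors move to the nucleus once calcineurin removes phosphates from them, the step that FK506 blocks, and often bind DNA next to AP-1. H3K4me3 marks the start of active and poised genes.

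The sequences under the NFATc2 summits nearest to the genes are shown first, because motif content differed between them. Each runs 5′ to 3′ on the strand of its gene in the mm9 build, and capitals mark GGAAAA, the core bound by NFAT, or TGANTCA, the AP-1 motif, on either strand. The printed windows reach 100 bases to each side of the summit, except that they stop at the TSS. The site at the Ccl17 start (chr8:97334156-97334352, plus strand) and that at the Ccr1 start (chr9:123883526-123883637, minus strand) held neither motif. The element upstream of Ccl17 (chr8:97327479-97327679, plus strand) held GGAAAA 5 bases from the summit, and GAGGAAGT, a form of the core bound by Ets factors such as PU.1, from base 64.
Ccl17 start: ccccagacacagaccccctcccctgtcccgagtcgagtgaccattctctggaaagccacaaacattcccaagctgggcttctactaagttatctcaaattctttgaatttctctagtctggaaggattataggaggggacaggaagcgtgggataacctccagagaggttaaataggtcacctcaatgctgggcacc
Ccl17 upstream element: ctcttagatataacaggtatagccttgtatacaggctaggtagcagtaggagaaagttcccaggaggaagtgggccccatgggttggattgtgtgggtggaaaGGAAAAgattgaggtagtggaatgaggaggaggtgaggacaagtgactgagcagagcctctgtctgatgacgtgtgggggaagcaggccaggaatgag
Ccr1 start: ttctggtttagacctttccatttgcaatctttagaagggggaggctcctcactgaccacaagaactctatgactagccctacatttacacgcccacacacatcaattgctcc

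The next 3 windows belong to sites away from a start. The distal site upstream of Ccl22 (chr8:97228560-97228760, plus strand) held TGANTCA from base 20 to base 26. The site upstream of Ccl24 (chr5:136058249-136058449, minus strand) held TGANTCA from base 17 to base 23 and GGAAAA, read as its complement, from base 139 to base 144. The site upstream of Ccr7 (chr11:99023094-99023294, minus strand) held GGAAAA from base 155 to base 160. No capitals overlapped one another.
Ccl22 distal site: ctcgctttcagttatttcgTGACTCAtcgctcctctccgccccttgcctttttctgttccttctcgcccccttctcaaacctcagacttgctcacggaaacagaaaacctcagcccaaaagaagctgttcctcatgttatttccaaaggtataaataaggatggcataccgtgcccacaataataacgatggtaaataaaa
Ccl24 upstream site: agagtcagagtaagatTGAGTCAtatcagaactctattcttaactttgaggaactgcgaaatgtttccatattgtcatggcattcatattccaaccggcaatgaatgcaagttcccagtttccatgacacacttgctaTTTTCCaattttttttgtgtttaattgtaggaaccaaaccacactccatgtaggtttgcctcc
Ccr7 upstream site: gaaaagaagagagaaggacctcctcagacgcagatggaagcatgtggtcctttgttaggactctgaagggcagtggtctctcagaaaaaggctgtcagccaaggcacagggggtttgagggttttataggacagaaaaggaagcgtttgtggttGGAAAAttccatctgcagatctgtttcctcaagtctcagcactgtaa

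Ccl22 had the highest ratio of scaled H3K4me3 tags between curdlan and NT of the 6 genes with peaks, although by fold enrichment that of Ccl17 was higher, and it had no NFATc2 summit at its start. The 250 bases before its TSS (chr8:97269240-97269489, plus strand) are shown because of that, and they held 1 copy of GGAAAA, on the minus strand, beginning 197 bases before the TSS. In the same 250 bases GGAAAA occurred at 3 of the 8 genes (Ccl22, Ccl24 and Ccr2) beside 20.7% of protein-coding genes. TGANTCA occurred at Ccr7 alone (6% of protein-coding genes), GAGGAAGT at Ccl24 and Ccr7 (2.24%) and the NF-κB consensus at none (4.14%). An absent motif says only that these letters are not in the window.
Ccl22 upstream: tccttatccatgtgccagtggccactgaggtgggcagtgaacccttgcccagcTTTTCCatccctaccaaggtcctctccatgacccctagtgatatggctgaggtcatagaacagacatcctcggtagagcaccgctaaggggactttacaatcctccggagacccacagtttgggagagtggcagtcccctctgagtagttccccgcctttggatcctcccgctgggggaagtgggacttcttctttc

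H3K4me3 was compared as RPM, that is, tags in all peaks over a gene or within 1 kb of a TSS per 1000000 ChIP tags of the library. A peak was called at 6 of the 8 genes in every list, Ccl24 and Ccr2 being the exceptions. Among all genes 35.7% had a peak in NT, 35.5% with curdlan and 35.4% with FK506, and among protein-coding genes 51.5%, 51.2% and 51.1%. With curdlan, 2 of the 6 genes with peaks were at least 2-fold higher than in NT, Ccl22 and Ccl17, against 0.983% of the 13019 genes with a peak in both lists. None of the 6 was at least 2-fold lower, against 0.668%. The median log2 ratio was 0.57 over the 6 genes and -0.13 over all genes, so ratios near 0.913 are the middle of the distribution.

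**Figure D1:**
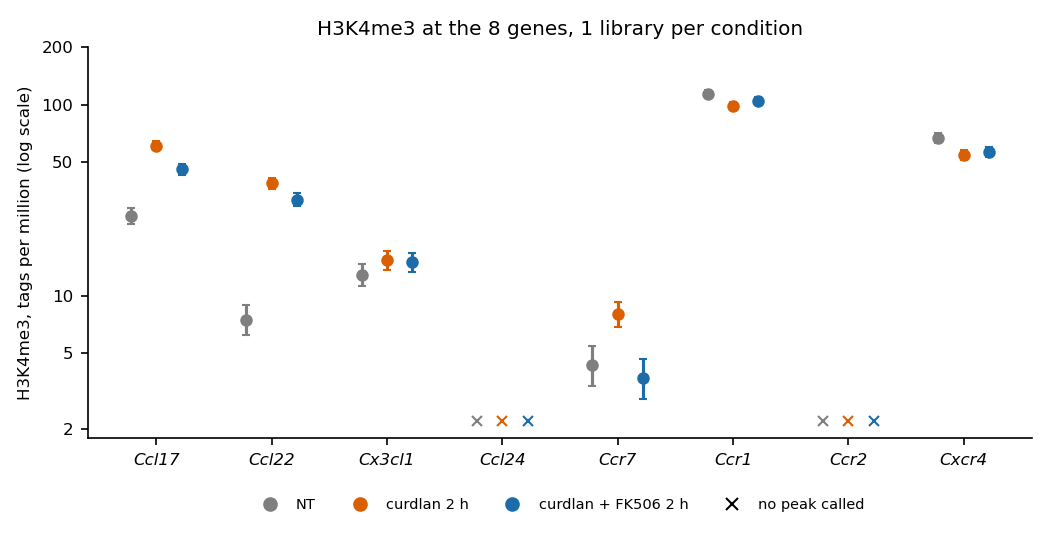
H3K4me3 RPM (vertical axis, log scale) at the 8 genes in the NT, curdlan and FK506 libraries, with exact Poisson 95% intervals for counting error and crosses where no peak was called. Ccl22 went from 7.50 in NT to 38.7 with curdlan and Ccl17 from 26.1 to 60.9, while Ccl24 and Ccr2 had no peak in any list.

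Ccl22 encodes a ligand of Ccr4 and spans chr8:97269490-97275599 on the plus strand. Its promoter peak held 125 tags in NT, 823 with curdlan and 619 with FK506, or 7.50, 38.7 and 31.8 RPM. In RPM the NT library stood far below both curdlan libraries. Curdlan over NT gave a ratio of 5.15 (4.26 to 6.27), above 99.9% of genes, and FK506 over curdlan gave 0.822 (0.740 to 0.914). The peak covered 2042, 4183 and 3975 bp in the same order. Per kb of peak, the level went from 3.67 RPM in NT to 9.24 with curdlan and 8.00 with FK506, so both length and tags per length differed. Fold enrichment over the input was 13.5, 35.5 and 19.3.

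Ccl17, the other Ccr4 ligand of the locus (chr8:97334353-97335935, plus strand), started from a larger peak. It held 435 tags in NT, 1297 with curdlan and 895 with FK506, or 26.1, 60.9 and 46.0 RPM. The FK506 library lay between the others. The ratio of curdlan to NT was 2.33 (2.09 to 2.61), that of FK506 to curdlan 0.755 (0.692 to 0.822), and that of FK506 to NT 1.76 (1.57 to 1.98). These 3 contrasts share libraries and are not independent of one another. The peak measured 3450, 4637 and 3971 bp. Scaled per kb of peak, the RPM were 7.57, 13.1 and 11.6, a ratio of 1.74 between curdlan and NT, which is below 2-fold.

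Cx3cl1 lies between them (chr8:97295909-97306323, plus strand) and encodes fractalkine, a chemokine made as a membrane protein and bound by Cx3cr1. Its peak held 214, 326 and 291 tags, or 12.8, 15.3 and 14.9 RPM. The ratio of curdlan to NT was 1.19 (1.00 to 1.42), higher than at 92.2% of genes, but per kb of peak it was 0.918, on the other side of 1. That is a log2 ratio of -0.12, where the median per kb over all genes was -0.18. With FK506 the ratio to curdlan was 0.976 (0.831 to 1.15). No difference in RPM between the curdlan and FK506 libraries was detectable here at this depth. By fold enrichment over the input the log2 ratio of FK506 to curdlan was 0.61, where the median of all genes was -0.27.

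Summed over the 3 genes, the locus held 774 tags in NT, 2446 with curdlan and 1805 with FK506. The ratio was 2.47 (2.28 to 2.69) for curdlan over NT and 0.807 (0.759 to 0.858) for FK506 over curdlan. Genes beside the locus had log2 ratios of curdlan to NT closer to 0 than Ccl22 and Ccl17. They were 0.22 for the peak that Coq9 and Ciapin1 share, 0.06 for Polr2c, -0.08 for Arl2bp and -0.66 for Dok4, which held 88 tags in NT and 71 with curdlan. Pllp, the first gene on the Ccl22 side, had no peak.

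**Figure D2:**
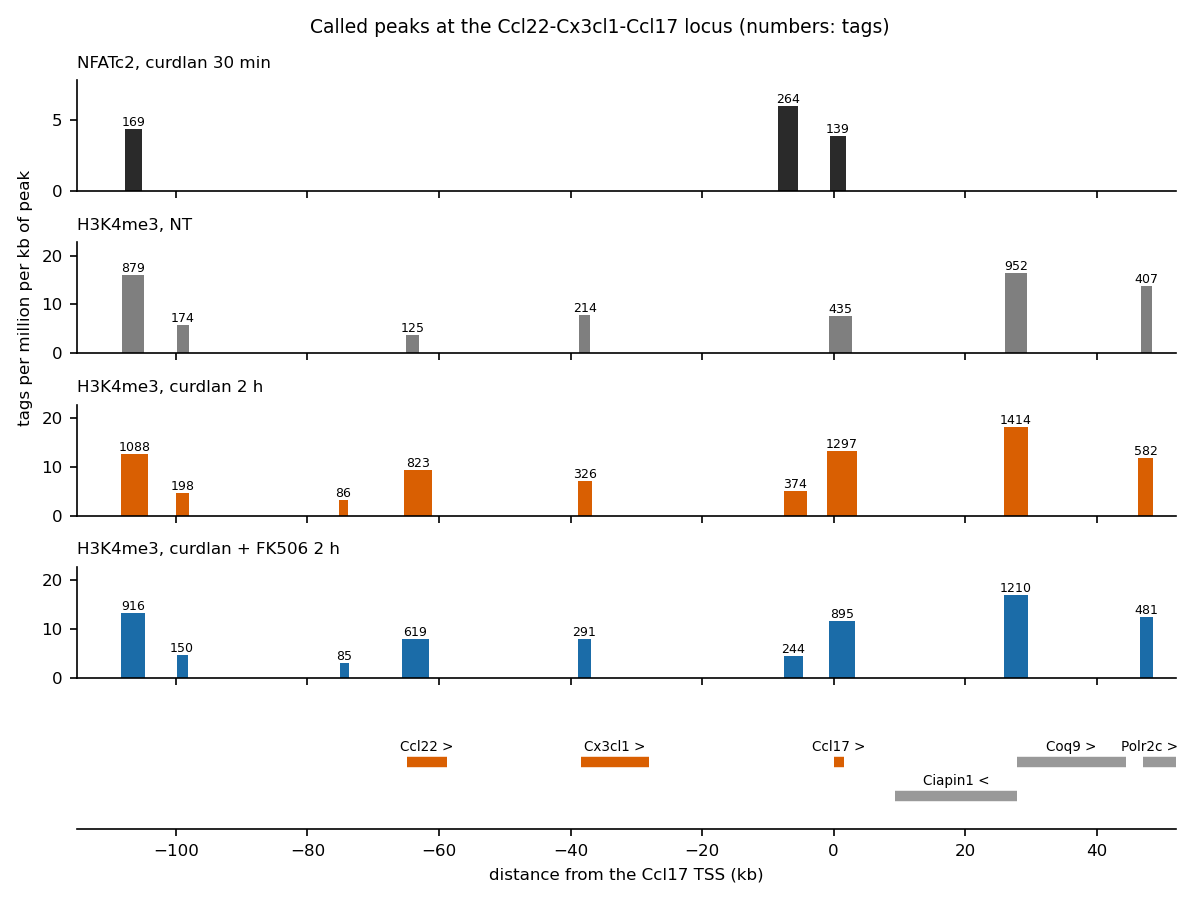
Called peaks around Ccl22, Cx3cl1 and Ccl17, with distance from the Ccl17 TSS in kb on the horizontal axis, RPM per kb of peak on the vertical axes, tags printed over each bar, and genes below with arrows for strand. An H3K4me3 peak of 374 tags with curdlan and 244 with FK506 stands under the NFATc2 peak of 264 tags upstream of Ccl17, where the NT list has none.

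Peaks absent from the NT list lay at 2 places in or beside the locus. Upstream of Ccl17, at the printed element, the H3K4me3 peak held 374 tags with curdlan (chr8:97326817-97330285) and 244 with FK506 (chr8:97326761-97329622), a ratio of 0.713 (0.605 to 0.841). The other lay upstream of Ccl22 and held 86 tags with curdlan and 85 with FK506, a ratio of 1.08 (0.791 to 1.48). Absence from the NT list means that no region passed the authors' threshold there, not that there were no tags. By contrast, the H3K4me3 peak at the distal site upstream of Ccl22 held 879 tags in NT, 1088 with curdlan and 916 with FK506, and its ratio of curdlan to NT was 0.969 (0.886 to 1.06).

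NFATc2 bound this locus at 3 summits, each within 100 kb of more than 1 of the genes. The strongest, at the upstream element (chr8:97325880-97328923), lay 6774 bp upstream of Ccl17 and held 264 tags. Of all summits, 97.2% held as many tags or fewer. It had a fold enrichment of 24.7 and the authors' p = 7.3e-35, the p of their peak caller. A second peak (chr8:97333733-97336233) had its summit 97 bp upstream of the Ccl17 TSS and held 139 tags at a fold enrichment of 6.88 and the authors' p = 9.8e-11. The distal peak (chr8:97226541-97229218) had its summit 40830 bp upstream of Ccl22, 6475 bp from an annotated copy of 7SK, with 169 tags, a fold enrichment of 15.4 and the authors' p = 2.0e-18. All 3 summits were intergenic. The summits at the Ccl17 start and at the distal site lay in an H3K4me3 peak in every list, and that at the upstream element in both curdlan lists but not in NT. Of all 9438 summits, 2.33% lay in an H3K4me3 peak with curdlan and not in NT.

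Ccl24 encodes eotaxin-2, a ligand of Ccr3, on chromosome 5 (chr5:136045807-136048913, minus strand). It had no H3K4me3 peak, and the nearest ones lay 23.3, 23.5 and 23.4 kb away in the NT, curdlan and FK506 lists. Yet 9436 bp upstream stood the NFATc2 summit with the most tags of any at these genes (chr5:136057269-136059203). It held 438 tags, with a fold enrichment of 22.4 and the authors' p = 6.5e-75. Of all summits, 99.6% held as many tags or fewer. The summit was outside the H3K4me3 peaks of every list.

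Ccr7, the receptor that brings mature DCs to lymph nodes (chr11:99005510-99016391, minus strand), had the weakest H3K4me3 peak of the 6 genes. It held 72 tags in NT, 171 with curdlan and again 72 with FK506, or 4.32, 8.03 and 3.70 RPM. The curdlan library stood above both others. Curdlan over NT was 1.86, a log2 ratio of 0.89 (0.49 to 1.31), above 98.7% of genes, and FK506 over curdlan was 0.460 (0.345 to 0.610), so that Ccr7 alone of the 6 was at least 2-fold lower with FK506, against 0.539% of the 12996 genes with a peak in both lists. None was at least 2-fold higher, against 0.2%. The median log2 ratio was -0.16 over the 6 genes and -0.04 over all genes.

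At Ccr7 the called length differed between libraries more than the tags per length. Its peak measured 2236 bp in NT, 3875 bp with curdlan and 1702 bp with FK506, all inside the gene. RPM per kb of peak were 1.93, 2.07 and 2.17, with overlapping counting intervals, and the ratio of FK506 to curdlan on that scale was 1.05, on the other side of 1. By fold enrichment over the input, the log2 ratio of curdlan to NT was 0.43, below the median of 0.73 over all genes. That of FK506 to curdlan was -0.01, above the median of -0.27. The 1 NFATc2 summit within 100 kb lay 6803 bp upstream with 25 tags, fewer than most summits (percentile 6.63), with a fold enrichment of 16.3 and the authors' p = 2.4e-07. It lay in no H3K4me3 peak.

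**Figure D3:**
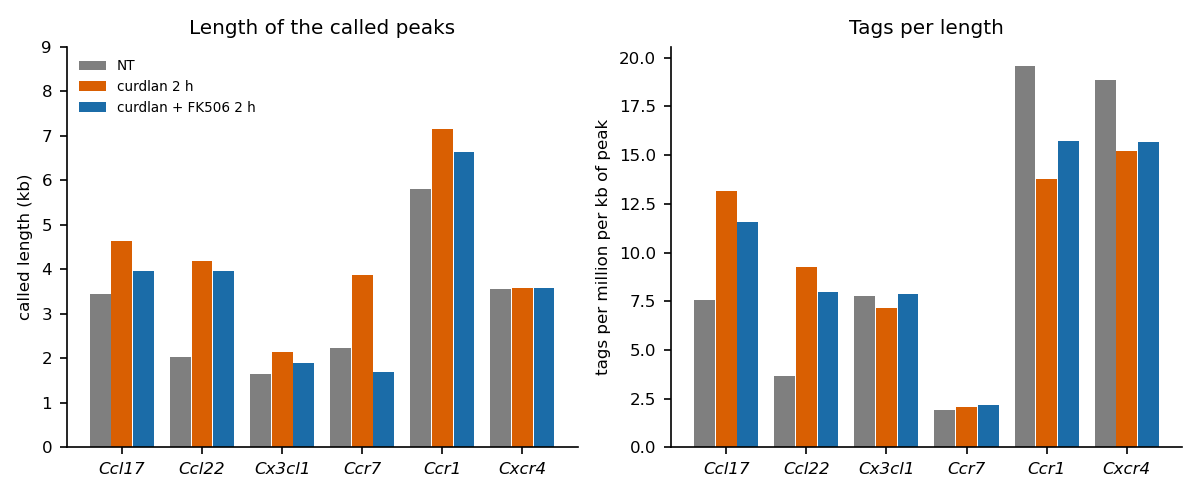
Called H3K4me3 peak length in kb (left) and RPM per kb of peak (right) at the 6 genes with peaks, as bars from 0 for NT, curdlan and FK506. At Ccr7 the length went from 2236 bp to 3875 bp and 1702 bp while tags per length were 1.93, 2.07 and 2.17, whereas at Ccl22 and Ccl17 both measures were higher with curdlan than in NT.

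Ccr1, a receptor for inflammatory chemokines such as Ccl3 and Ccl5 (chr9:123876959-123883525, minus strand), carried the most tags. Its 2 peaks held 1896 tags in NT, 2100 with curdlan and 2036 with FK506, or 114, 98.6 and 105 RPM. In RPM the NT library was the highest of the 3 and the curdlan library the lowest. Curdlan over NT was 0.867 (0.814 to 0.923), a log2 ratio of -0.21, or -0.07 relative to the median of all genes. Other scales placed Ccr1 farther below the median. Per kb of peak the log2 ratio was -0.51, where the median of all genes was -0.18. By fold enrichment, taken from the higher of the 2 peaks, it was -0.36, where the median was 0.73. The peak at the start held 1327, 1300 and 1281 tags, with a ratio of curdlan to NT of 0.767 (0.710 to 0.828). The second peak, in the downstream part of the gene, held 569, 800 and 755 tags, with a ratio of 1.10 (0.987 to 1.23).

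NFATc2 summits were dense around Ccr1, with 9 within 100 kb. At least 9 were found at 0.591% of protein-coding genes, whose median was 1. Such numbers also occurred among the other receptor and ligand genes listed below. Ccr3 had 9, Ccr8, Cx3cr1, Ccl2 and Ccl7 had 10 each, and Ccrl2 had 13. The remaining genes of those lists had fewer than 9. The summit 12 bp upstream of the Ccr1 TSS held 244 tags at a fold enrichment of 29.7 and the authors' p = 9.5e-58 and lay inside an H3K4me3 peak in every list. The rest held between 46 and 220 tags, and 3 of them lay nearest to Gm4694 and 3 nearest to Ccr3, the eotaxin receptor gene. Of these, the summit 221 bp upstream of the Ccr3 TSS held 63 tags and matched GGAAAA and also TGANTCA and the NF-κB consensus within 100 bp. That with 220 tags, 34.5 kb downstream of the Ccr1 TSS, lay in an H3K4me3 peak in the list with FK506 and in neither of the others.

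Ccr2, the receptor for Ccl2 (chr9:124016689-124028296, plus strand), stands in the same cluster of receptor genes and had no H3K4me3 peak. There were 5 NFATc2 summits within 100 kb, with 46 to 114 tags, and 3 of them were those also counted for Ccr1. The nearest, 13.2 kb downstream of the Ccr2 TSS, held 89 tags at a fold enrichment of 31.5 and the authors' p = 1.5e-28. None was in an H3K4me3 peak.

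Cxcr4, the receptor for Cxcl12 (chr1:130484776-130488870, minus strand), was the 1 gene with no NFATc2 summit within 100 kb. The nearest, of 55 tags, lay 121 kb away beside Gm17699. Its H3K4me3 peak held 1118 tags in NT, 1156 with curdlan and 1098 with FK506, or 67.1, 54.3 and 56.4 RPM. The ratio of curdlan to NT was 0.809 (0.745 to 0.879), a log2 ratio of -0.31, or -0.17 relative to all genes. On the scale of fold enrichment over the input the log2 ratio was 0.79, of opposite sign, where the median of all genes was 0.73. The peak length was 3562, 3575 and 3594 bp, the steadiest of the 6.

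Levels were ordered on the scale of RPM per kb of peak. In NT the order was Ccr1 at 19.6 (18.7 to 20.5), Cxcr4 at 18.8 (17.7 to 20.0), Cx3cl1 at 7.77 (6.76 to 8.88), Ccl17 at 7.57 (6.87 to 8.31), Ccl22 at 3.67 (3.06 to 4.38) and Ccr7 at 1.93 (1.51 to 2.43). The counting intervals overlapped between Ccr1 and Cxcr4 and between Cx3cl1 and Ccl17. With curdlan the order was Cxcr4 at 15.2, Ccr1 at 13.8, Ccl17 at 13.1, Ccl22 at 9.24, Cx3cl1 at 7.13 and Ccr7 at 2.07. Intervals then overlapped between Ccr1 and its neighbours Cxcr4 and Ccl17. With FK506 the order was Ccr1 and Cxcr4, both at 15.7, Ccl17 at 11.6, Ccl22 at 8.00, Cx3cl1 at 7.88 and Ccr7 at 2.17, and intervals overlapped between the first pair and between Ccl22 and Cx3cl1. Ccl22 thus stood below Cx3cl1 in NT and above it with curdlan.

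**Figure D4:**
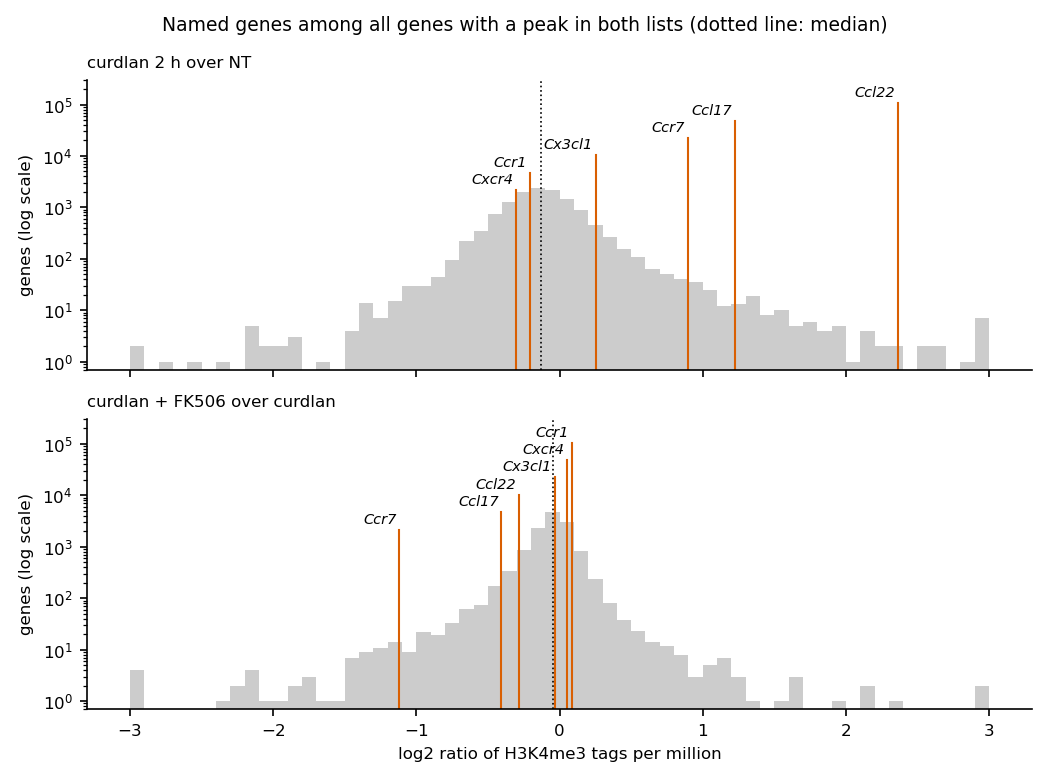
Number of genes (log scale) by log2 ratio of H3K4me3 RPM, for curdlan over NT (top) and FK506 over curdlan (bottom), with ratios beyond 3 in either direction placed in the end bins, a dotted line at the median of all genes and orange lines at the 6 genes with peaks. Ccl22 at 2.37 and Ccl17 at 1.22 lie in the upper tail of the first and Ccr7 at -1.12 in the lower tail of the second.

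FK506 together with curdlan was also set against NT. Ccl22 was at least 2-fold higher, at 4.24 (3.49 to 5.18), against 0.631% of 12997 genes. By fold enrichment over the input Ccl22 was not past 2-fold, at a log2 ratio of 0.52 where the median of all genes was 0.45, and Ccl17 at 1.79 and Cx3cl1 at 1.26 were. None of the 6 was at least 2-fold lower, against 0.777%. Ccr7 was at 0.856 (0.609 to 1.20), where the median of all genes was 0.883. Relative to the median of all genes, the log2 ratio was 2.26 at Ccl22, 1.00 at Ccl17, 0.40 at Cx3cl1, -0.05 at Ccr7, 0.06 at Ccr1 and -0.07 at Cxcr4.

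Taking the 8 genes as one list, 7 had an NFATc2 summit within 100 kb, beside 49.2% of all genes and 55.4% of protein-coding genes. Within 30 kb there were 5, beside 26% and 30.2%, within 10 kb 4, beside 13.2% and 16.3%, and within 1 kb 2, Ccl17 and Ccr1, beside 3.77% and 5.29%. Within 100 kb, 13 of 15 other receptors, 4 of 7 ligands and 14 of 14 migration genes listed below also had one. The genes of a cluster share summits, so these counts are not independent. The 8 genes had 16 distinct summits, 6 of them within reach of more than 1 gene, with 25 to 438 tags. Their median was 114.5 tags beside 63 for all summits. Of the 16, 14 lay outside annotated genes and 1 in an exon of Ccr3. The 14 include the summits 97 bp upstream of the Ccl17 TSS and 12 bp upstream of the Ccr1 TSS. The matching share of all summits is not given here, so the count has no background beside it. An H3K4me3 peak covered 3 of the 16 summits in NT, 4 with curdlan and 5 with FK506, beside 23.8%, 23.3% and 22.5% of all summits.

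**Figure D5:**
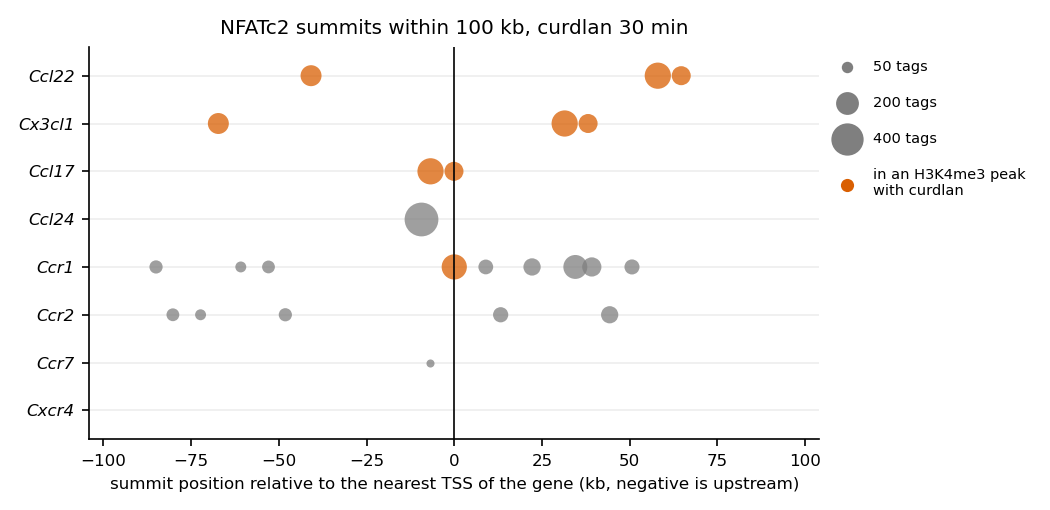
Position of NFATc2 summits relative to the nearest TSS of each gene (horizontal axis, kb, negative is upstream), with circle area in proportion to tags and orange for summits in an H3K4me3 peak with curdlan. The summit with 438 tags stands upstream of Ccl24, 9 summits surround Ccr1, and Cxcr4 has none.

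Within 100 bp of the summit, GGAAAA was found at 7 of the 16 summits, beside 45.6% of all summits. TGANTCA was found at 5, beside 21.8%, the NF-κB consensus at 1, beside 3.46%, and GAGGAAGT at 2, beside 9.27%. Every motif was searched on both strands. For GGAAAA the share at these summits was near that of all summits. The summits at the Ccl17 and Ccr1 starts held none of the 4 motifs, whereas the one upstream of Ccl24 held GGAAAA and TGANTCA.

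Further genes of the pathway were read from lists of 15 other chemokine receptors, 7 ligands of the receptors above and 14 genes for adhesion, matrix and cytoskeleton in migrating cells. With curdlan against NT, 1 of the 16 with peaks in both lists was at least 2-fold higher and 0 were lower, beside 0.983% and 0.668% of all genes. That was Ccl3, a ligand of Ccr1. It held 179, 991 and 677 tags in the NT, curdlan and FK506 libraries, with log2 ratios of 2.12 for curdlan over NT and -0.42 for FK506 over curdlan. Among the 4 receptor genes compared none passed 2-fold, nor did any of the 10 migration genes, whose median log2 ratio was -0.06 beside -0.13 for all genes. Cxcl12, Ccl19 and Ccl21a, which are made largely by stromal cells, had neither a peak nor a summit within 100 kb. Ccr4, the receptor of Ccl17 and Ccl22, had neither as well.

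The genes most like Ccl17 and Ccl22 were found by the Euclidean distance over the log2 ratios of curdlan to NT and of FK506 to curdlan, from 3 libraries and 10839 genes with at least 100 tags in each. Nearest to Ccl17 were BC006779 (distance 0.0128), Obsl1 (0.0394) and Egr1 (0.0542), an immediate early transcription factor gene. Neighbouring genes of Obsl1 shared its log2 ratio of FK506 to curdlan, -0.37. Their log2 ratio of curdlan to NT was 0.25, where that of Obsl1 was 1.24. Whether this came from the division of NT peaks between the genes was not tested. Egr1 held 769 tags in NT, 2367 with curdlan and 1601 with FK506. Nearest to Ccl22 were Fam167a (0.284), Ccl3 (0.286) and Amdhd2 (0.356), all farther away than those of Ccl17.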

How the data were processed

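ChIP-seq peak lists of 4 conditions were used, with 1 ChIP library and 1 input each. Reads had been aligned by the authors to mm9 using bowtie 1 (version not given in the sources used here), kept at most 1 tag per position and called peaks in each library against its input with MACS (1.4.2 per the file headers) at p = 1e-05. The deposited values per peak are positions, the count of tags (not normalized), a score (the negative log10 p times a constant), fold enrichment over the input as a ratio, and FDR in percent.

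Tags were divided by the header total of ChIP tags. Ratios have exact conditional binomial 95% intervals and levels exact Poisson ones. Genes came from Ensembl release 65 on mm9. Calculations ran in scipy 1.17.1, pandas 2.3.3, numpy 2.4.6 and matplotlib 3.10.9 under Python 3.11.15 and were tested on simulated data. Named genes were the 8 members, listed genes past 2-fold, genes nearest to their summits, neighbours of the Ccl22 locus and the 3 genes nearest in pattern to Ccl17 and Ccl22. Ccrl2, Ccr9, Xcr1, Cxcr5, Ccr4, Ccr8, Cx3cr1, Ccl2, Ccl7, Cxcl12, Ccl19 and Ccl21a, also listed, were named after their values were seen. Members and lists were chosen with earlier results of these data known. Alternatives changed the threshold, windows, measure, centring and motif window. One neighbouring gene is not reported here.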

Additional observations from a re-analysis of the deposited data

How the results depend on the processing

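Alternatives left 72 of 82 counts within 1.5 times their value and moved 10. Counts that stayed at 0 or went from 2 to 3 are among the 72. Of 142 log2 ratios of the genes, 100 stayed within their counting interval, 41 moved outside it and 1 reversed. The 100 are no measure of stability, because the filters on p and FDR kept the same peaks and returned the same ratios. Fold enrichment, a different measure, moved every ratio except that of FK506 to NT at Ccr1. Per kb of peak, 1 gene in place of 2 was at least 2-fold higher with curdlan than in NT, Ccl22, with Ccl17 at a log2 ratio of 0.80. Centred on the median of all genes or scaled by tags in peaks there were 3, with Ccr7 added at 1.03. The count at least 2-fold lower with FK506 than with curdlan went from 1 to 0 per kb of peak, by fold enrichment and with a peak threshold of 1e-10, where Ccr7 had no peak with FK506. The log2 ratio of Ccr7 turned to 0.07 per kb (0.06803). FK506 against NT gave 2 genes at least 2-fold higher in place of 1, Ccl22. By fold enrichment these were Ccl17 (1.79) and Cx3cl1 (1.26), with Ccl22 no longer among them (0.52), and with a window of 5 kb Ccl22 (2.08) and Ccl17 (1.16). Distinct summits went from 16 to 8 within 30 kb and 6 within 10 kb, and genes with a summit from 7 to 4 within 10 kb. GGAAAA lay within 50 bp of 4 summits in place of 7. Shares of all genes or summits under these alternatives are not given here, and those printed above belong to the main setting. By fold enrichment the median log2 ratio of all genes was 0.73 for curdlan over NT and 0.45 for FK506 over NT. Over all alternatives the log2 ratio of curdlan to NT was 1.33 to 2.50 at Ccl22, 0.80 to 2.43 at Ccl17 and 0.10 to 1.03 at Ccr7. No paired analysis was possible because each condition had 1 library, which also leaves no replicate to omit. Depth limits Ccr7 most, since 72 tags carry its NT and FK506 values.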

Other observations

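Cxcr5, a receptor gene outside the 8, had a peak of 53 tags in NT and no peak with curdlan or with FK506. Among receptor genes with a peak in every list, Ccrl2, an atypical receptor that binds chemerin, held 1213 tags in NT, 1985 with curdlan and 1449 with FK506, with 13 NFATc2 summits within 100 kb. Its log2 ratio was 0.36 for curdlan over NT and -0.33 for FK506 over curdlan. Ccr9, a receptor of gut-homing cells, held 262, 366 and 445 tags, with a log2 ratio of 0.13 for curdlan over NT and 0.41 for FK506 over curdlan. Xcr1, a receptor of cross-presenting DCs, held 997, 1089 and 1016 tags.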
